A study of Mus musculus with 6 samples.

Results

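The 10 genes described here mark the luminal progenitor, the mammary epithelial cell that gives rise to the milk-secreting alveolar cells. They were chosen by name: the transcription factor genes Elf5, Ehf, Elf3, Sox9, Sox10 and Lmo4, the surface protein genes Kit, Itgb3 and Cd14, and the retinaldehyde dehydrogenase gene Aldh1a3. All 10 were found among the 19739 genes of the deposited table, and all 10 passed the filter on low values that left 16394 genes for testing.

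Luminal progenitors line the mammary duct beside hormone-sensing luminal cells, and a basal, contractile layer surrounds both. ELF5 is the ETS-family factor that drives alveolar differentiation downstream of the prolactin receptor. KIT, the receptor of stem cell factor, CD14, a co-receptor for bacterial lipopolysaccharide, and the integrin beta-3 chain ITGB3 are surface proteins used to sort these cells, and ALDH1A3 makes retinoic acid from retinaldehyde.

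RNA was sequenced from 6 libraries of primary luminal cells of wild-type mice. Cells had been purified by flow cytometry from mammary tissue and grown in medium with 5% serum, EGF, FGF2, heparin and the ROCK inhibitor Y-27632. The EFNA3 group of 3 libraries was starved of serum for 12 hours and then given ephrin-A3 protein at 1 µg/ml in serum-free medium for 24 hours. The control group of 3 libraries is labelled with EFNA3 at 0 µg/ml; its starvation and medium are those of the shared protocol. The gates used for sorting, the strain, age and number of animals, and the form of the protein are not stated in the sources. The comparison asks how a ligand of Eph receptors added from outside alters gene expression in these cells. The labels leave unsaid whether replicates are separate animals or cultures; p-values therefore speak only of the spread among these 6 libraries, which could be technical.

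All values are the authors' log2 values, brought to 1 common distribution in every library, so that depth is unknown and no counting interval can be given. EFNA3 replicate 1 stood apart from the other libraries. Its deviation from the mean of the 6 libraries had a Spearman correlation of -0.51 with transcript length across 15972 tested genes, against 0.02 and 0.15 in EFNA3 replicates 2 and 3 and 0.08 to 0.35 in the controls. Differences below are therefore given with and without that library. In bulk samples fewer cells of a type and less RNA per cell cannot be told apart.

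EFNA3 protein left no member past the test. With EFNA3, 6 of the 10 genes had a higher mean than in controls and 4 a lower one, where 50.8% of all tested genes were higher. Without EFNA3 replicate 1 the members split into 5 higher and 5 lower, beside 49.7% of tested genes higher. The differences on the log2 scale ran from -0.12 for Ehf to 0.14 for Elf3, with a median of 0.0048 over the members and 0.0038 over all tested genes. By limma, 0 members and 0 genes in all (0% of 16394) passed at an adjusted p under 0.05. At an unadjusted p under 0.05 there were 0 members as well, against 6.73% of tested genes. A difference of more than 0.2 in size was seen in 0 of 10 members against 33.5% of tested genes, and without EFNA3 replicate 1 in 0 of 10 against 18.7%. The tested genes include many far lower than the members, and no share was taken among genes of like level. These shares therefore do not show that the members were steadier than such genes. In 0 of 10 genes did the 3 EFNA3 values lie entirely above or below the 3 control values, against 16.0% of tested genes. The 95% intervals of the limma fit ended between 0.817-fold, for Ehf, and 1.33-fold, for Elf3.

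**Figure D1:**
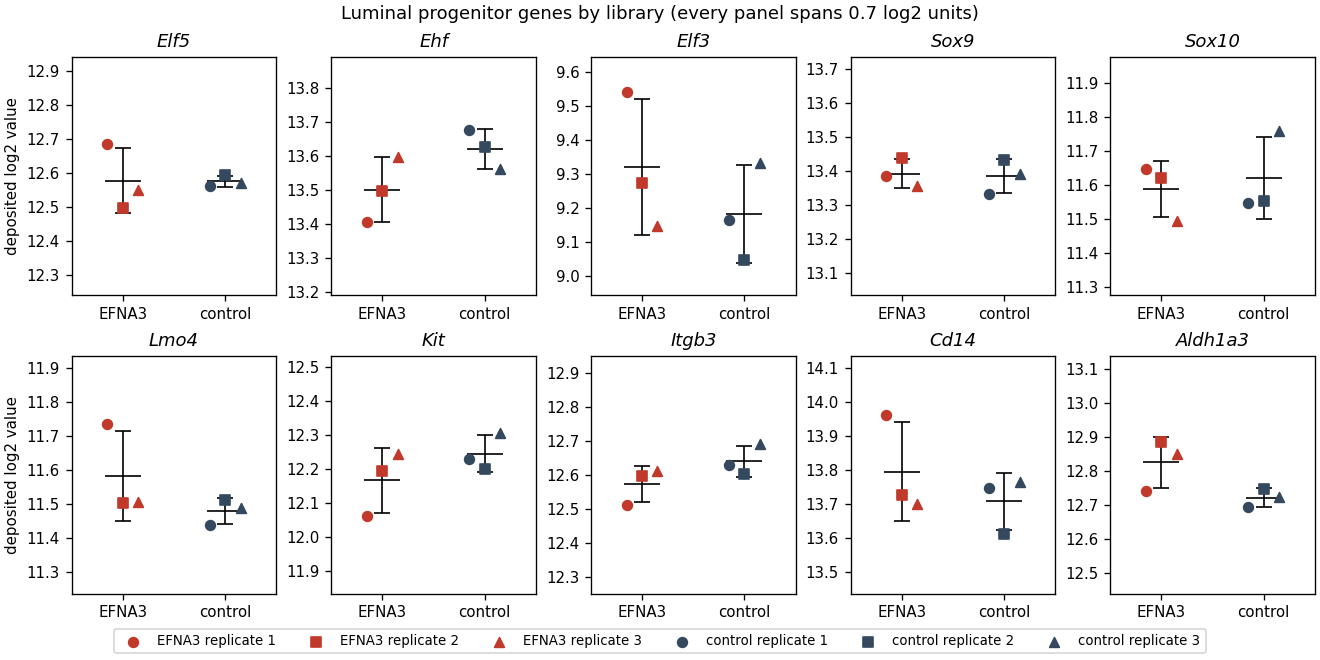
Deposited log2 value of each of the 10 genes in every library, with EFNA3 libraries left of controls and bars for the mean and SD of 3 libraries. Each panel spans the same height, and the 2 groups overlap in every gene.

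The cultures carried these transcripts at high levels. To compare genes, the log2 of the length in kilobases of its longest annotated transcript was subtracted from each log2 value, which gives a log2 level per kilobase. On that scale Cd14 led with 13.08 in EFNA3 libraries and 12.99 in controls. Ehf followed with 11.34 in EFNA3 libraries and 11.46 in controls, and Sox9 with 11.34 in both groups. Aldh1a3, at 11.04 with EFNA3 and 10.94 in controls, Elf5, at 10.87 in both groups, and Lmo4, at 10.84 with EFNA3 and 10.74 in controls, came next. Sox10 and Itgb3 stood at 10.11 and 10.04 with EFNA3 and at 10.14 and 10.11 in controls, and this pair did not differ in controls beyond their spread. Kit had 9.78 with EFNA3 and 9.86 in controls. Elf3 was last, at 8.25 with EFNA3 and 8.11 in controls. Among tested genes, whose median control level per kilobase was 7.52, the members lay between percentile 60.2 for Elf3 and percentile 99.4 for Cd14. The longest Elf5 transcript of 3262 nt is annotated as a retained intron. With its longest protein-coding transcript of 2532 nt Elf5 stood at 11.24 with EFNA3 and 11.23 in controls, above Aldh1a3.

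**Figure D2:**
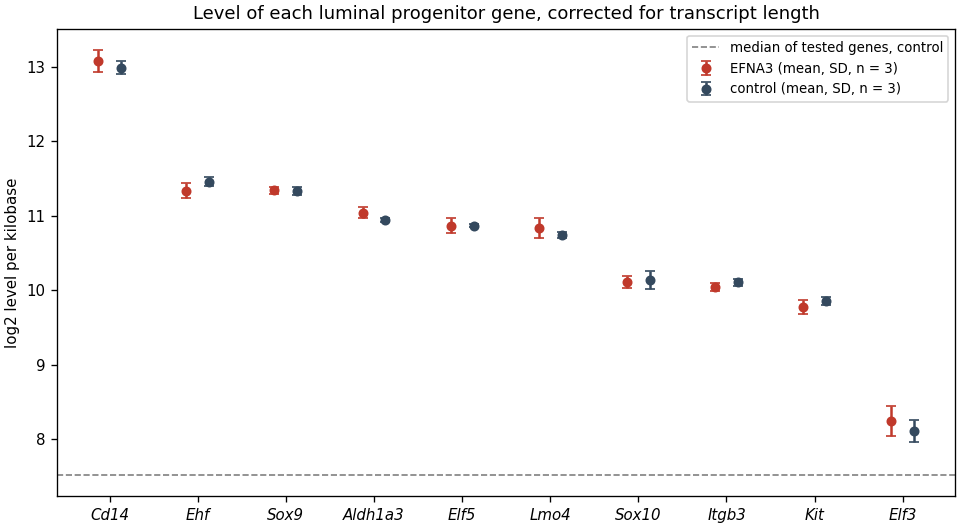
Log2 level per kilobase of each gene (mean and SD of 3 libraries), EFNA3 left of control, ordered by the control level. All 10 genes lie above the dashed line, the median of tested genes at 7.52.

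Elf5, Ehf and Elf3 belong to the ETS family, whose proteins bind DNA around a GGAA core. Elf5 read 12.68, 12.50 and 12.55 in EFNA3 libraries (replicates 1 to 3), against 12.56, 12.59 and 12.57 in controls. EFNA3 replicate 1 was the highest of all 6 libraries, while the other EFNA3 libraries lay below every control. The mean difference was 0.002 (SE 0.071, adjusted p = 0.99 by limma), with a 95% interval from -0.16 to 0.16. Without EFNA3 replicate 1 it was -0.05 (SE 0.05, adjusted p = 0.98), and the interval ran from -0.15 to 0.05. The spread of Elf5 in controls, an SD of 0.017 over 3 libraries, was the smallest of the 10 genes, and its SD was 0.096 in EFNA3 libraries.

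Ehf, which encodes an epithelial ETS factor also known as ESE3, read 13.40, 13.50 and 13.60 in EFNA3 libraries, against 13.68, 13.62 and 13.56 in controls. EFNA3 replicates 1 and 2 lay below all controls and EFNA3 replicate 3 lay within their range. Ehf differed by -0.12 (SE 0.08, adjusted p = 0.55 by limma), the most negative of the members, and by -0.07 (SE 0.05) without EFNA3 replicate 1. Elf3, which encodes the related factor ESE1, known for its induction by inflammatory cytokines, read 9.54, 9.27 and 9.15 in EFNA3 libraries, against 9.16, 9.05 and 9.33 in controls. Only EFNA3 replicate 1 was above all controls, and the 6 values spanned 0.49, the widest range among the members. The difference of 0.14 (SE 0.12, adjusted p = 0.63 by limma) was 0.03 (SE 0.10) without that library.

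RefSeq promoter windows were at hand for Elf5, Elf3, Kit and Lmo4. They are printed for Elf5 and Elf3, as the ETS factor genes among these, and for Kit, as the receptor gene. Each window of 300 bases spans a start site in build GRCm38.p6, 5′ to 3′ on the gene's strand, and capitals mark the ETS core GGAA or its reverse complement TTCC.
Elf5, chr2:103411848-103412147, plus strand: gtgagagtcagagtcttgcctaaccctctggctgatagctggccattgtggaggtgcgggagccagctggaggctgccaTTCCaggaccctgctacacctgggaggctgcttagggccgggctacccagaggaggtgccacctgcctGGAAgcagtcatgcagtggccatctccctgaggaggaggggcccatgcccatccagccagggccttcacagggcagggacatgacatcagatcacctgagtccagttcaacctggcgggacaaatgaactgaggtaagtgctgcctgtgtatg
Elf3, chr1:135258423-135258722, minus strand: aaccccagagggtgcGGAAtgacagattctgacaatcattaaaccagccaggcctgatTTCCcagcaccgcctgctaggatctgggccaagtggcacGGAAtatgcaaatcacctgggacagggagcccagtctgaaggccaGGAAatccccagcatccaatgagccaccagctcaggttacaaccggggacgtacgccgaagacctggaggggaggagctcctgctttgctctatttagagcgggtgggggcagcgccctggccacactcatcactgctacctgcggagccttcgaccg
Kit, chr5:75574737-75575036, plus strand: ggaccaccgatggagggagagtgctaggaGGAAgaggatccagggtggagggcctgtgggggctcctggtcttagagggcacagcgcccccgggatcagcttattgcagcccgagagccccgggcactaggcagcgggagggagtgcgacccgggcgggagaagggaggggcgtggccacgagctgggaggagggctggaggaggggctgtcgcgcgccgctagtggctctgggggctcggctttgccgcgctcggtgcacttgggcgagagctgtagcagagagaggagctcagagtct
The core occurs 2 times in the Elf5 window shown, 4 times in that of Elf3 and 1 time in that of Kit. On either strand it is in all 8 windows of these 4 genes and in 96.0% of 32851 windows of that length, so its presence does not set these genes apart. The longer form CCGGAAG, which contains the core, is in 0 of the 8 windows and in 8.86% of all windows. AACAAT, a form of the SOX-factor site, is in 0 of the 8 and in 10.7% of all. These are matches of letters and not measured binding.

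Sox9 and Sox10 encode SOX factors linked to progenitor and neural crest-like states. Sox9 had the narrowest range of the members, with 13.38, 13.44 and 13.35 in EFNA3 libraries, against 13.33, 13.43 and 13.39 in controls. Its difference of 0.007 (SE 0.067, adjusted p = 0.97 by limma) was 0.011 (SE 0.051) without EFNA3 replicate 1, and the 95% interval with all libraries, -0.14 to 0.16, leaves room for changes of up to 1.12-fold. Sox10 read 11.65, 11.62 and 11.49 in EFNA3 libraries, against 11.55, 11.55 and 11.76 in controls. Here EFNA3 replicate 3 was the lowest and control replicate 3 the highest library. Sox10 differed by -0.03 (SE 0.08, adjusted p = 0.88 by limma), or -0.06 (SE 0.07) without EFNA3 replicate 1. Lmo4, a LIM-only adaptor that bridges transcription factors through LDB1, read 11.73, 11.50 and 11.51 in EFNA3 libraries, against 11.44, 11.51 and 11.49 in controls. EFNA3 replicates 2 and 3 lay within the range of the controls, and EFNA3 replicate 1 lay above it. The difference of 0.10 (SE 0.08, adjusted p = 0.60 by limma) was 0.02 (SE 0.05) without that library.

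Kit, Itgb3 and Cd14 are the genes of surface proteins. Kit read 12.06, 12.19 and 12.25 in EFNA3 libraries, against 12.23, 12.20 and 12.31 in controls, a difference of -0.08 (SE 0.07, adjusted p = 0.65 by limma). Itgb3 read 12.51, 12.60 and 12.61 in EFNA3 libraries, against 12.63, 12.60 and 12.69 in controls, a difference of -0.07 (SE 0.07, adjusted p = 0.67 by limma). In both genes EFNA3 replicates 1 and 2 lay below all controls, replicate 1 lowest, and EFNA3 replicate 3 lay within their range. Without EFNA3 replicate 1 Kit differed by -0.03 (SE 0.05) and Itgb3 by -0.04 (SE 0.05). When the trend with transcript length and GC share was taken out of each library the sign turned, to 0.03 for Kit and 0.05 for Itgb3, and Cd14 was at 0.02. Cd14 read 13.96, 13.72 and 13.70 in EFNA3 libraries, against 13.75, 13.61 and 13.76 in controls. EFNA3 replicate 1 was again the library outside the range of the controls, and the difference of 0.09 (SE 0.09, adjusted p = 0.68 by limma) was 0.004 (SE 0.055) without it.

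Aldh1a3 had a larger difference when EFNA3 replicate 1 was left out. It read 12.74, 12.89 and 12.85 in EFNA3 libraries, against 12.70, 12.75 and 12.72 in controls. EFNA3 replicates 2 and 3 lay above every control, and EFNA3 replicate 1 lay just below control replicate 2. The difference was 0.10 (SE 0.07, adjusted p = 0.56 by limma), with an interval from -0.05 to 0.26. Without EFNA3 replicate 1 it was 0.15 (SE 0.05), or 1.11-fold, with an interval from 0.04 to 0.25, and the limma p adjusted over all 16206 genes tested was 0.98. Aldh1a3 was then the 1 member of 10 at an unadjusted p under 0.05, where 4.62% of tested genes stood. It and Elf5, in opposite directions, were the 2 members whose groups no longer overlapped, against 19.6% of tested genes. With the length and GC correction Aldh1a3 differed by 0.12 over 6 libraries, or 0.15 with EFNA3 replicate 1 left out, and no alternative brought any member to an adjusted p under 0.05.

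**Figure D3:**
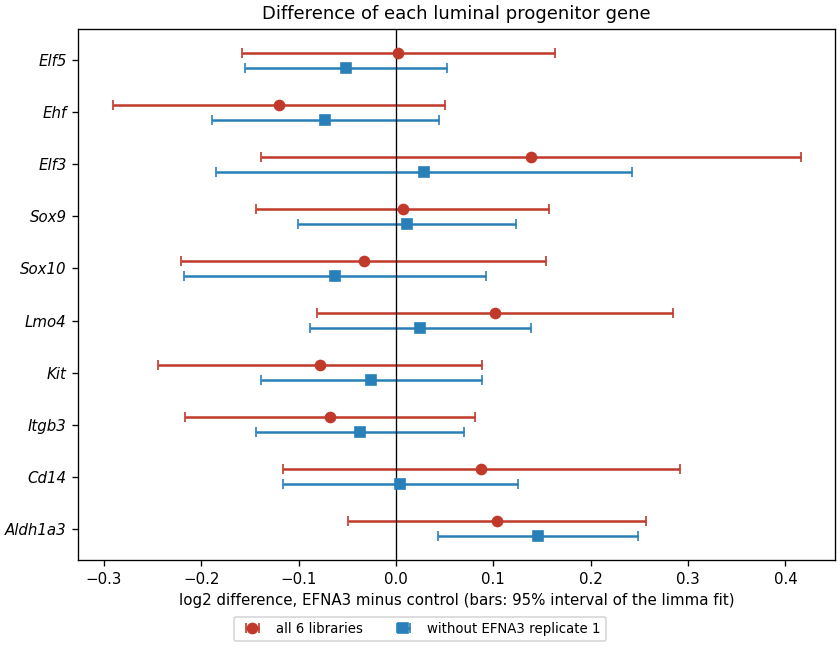
Log2 difference of each gene, EFNA3 minus control, with the 95% interval of the limma fit, for all 6 libraries (red circles) and without EFNA3 replicate 1 (blue squares). With all libraries every interval crosses 0; without EFNA3 replicate 1 that of Aldh1a3 runs from 0.04 to 0.25.

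Over the members, the departure of EFNA3 replicate 1 followed transcript length. Against the 6-library mean it deviated by 0.21 in Cd14 (1641 nt), 0.20 in Lmo4 (1669 nt) and 0.29 in Elf3 (2095 nt), the 3 shortest transcripts. It was -0.15 in Ehf (4469 nt), -0.14 in Kit (5241 nt) and -0.09 in Itgb3 (5784 nt), the 3 longest. The 4 genes between had deviations from -0.03 to 0.11. Across the 10 members, which share each library and are not independent, the Spearman correlation of deviation with length was -0.89, or -0.90 with the longest protein-coding transcripts. The other libraries had correlations between 0.10 and 0.67. The difference between groups had a Spearman correlation with length of -0.68 over the 10 members, and of -0.35 without EFNA3 replicate 1. The median size of the difference, sign aside, was 0.083 with all libraries and 0.033 without that one. Over all tested genes, which include many far lower than the members, it was 0.14 and 0.077. The part of transcript length in the differences was not tested beyond the correction already given.

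**Figure D4:**
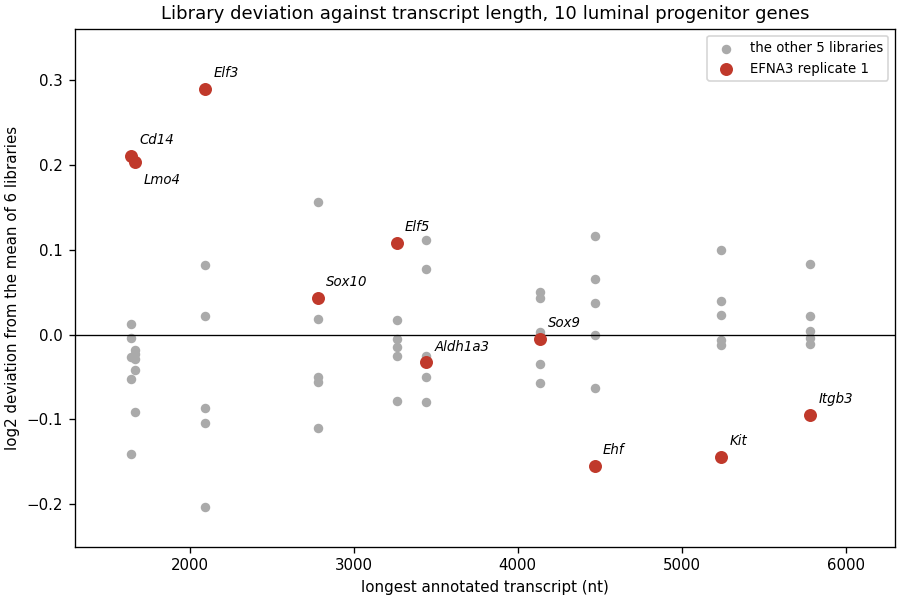
Deviation of each library from the mean of 6, in log2 units, against the length of the longest annotated transcript of the 10 genes. EFNA3 replicate 1 (red) runs from above 0 in the short transcripts of Cd14, Lmo4 and Elf3 to below 0 in the long ones of Ehf, Kit and Itgb3, while the other libraries (grey) lie between -0.20 and 0.16.

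Some pairs of members varied together across libraries and others in opposite directions. This is a description over 6 libraries that share the common scaling. Kit and Itgb3 had a Pearson correlation of 0.98 over the 6 libraries and 0.94 over the 5 without EFNA3 replicate 1. Elf3 and Cd14 had 0.95 over 6 and 0.84 over 5. These pairs had the highest correlations of all member pairs over 6 libraries. In the opposite direction, Ehf and Elf3 had -0.87 over 6 libraries and -0.65 over 5. Ehf and Lmo4 had -0.85 and -0.57. Other pairs rested on EFNA3 replicate 1. Lmo4 and Kit had -0.86 over 6 libraries and -0.17 over 5, and Lmo4 and Cd14 had 0.79 and -0.58. Among 11765 genes averaging 50 or more as linear values, Rpap2, Asb13 and Ublcp1 were most like Elf5 over the 6 libraries, with Pearson correlations of 0.992, 0.989 and 0.982. Efl1, Txndc16 and Nsf were most like Kit, at 0.991, 0.985 and 0.982. These genes were picked as the highest of 11765 correlations, each over only 6 libraries. Such a choice gives high values by itself, so they do not measure a link between the genes.

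Genes that act with the members were taken from lists of partners and pathways, in which 0 genes passed limma at an adjusted p under 0.05. Of 18 tested genes of KIT signalling, 5 were higher and 13 lower with EFNA3, with a median difference of -0.061, and 0 had an unadjusted p under 0.05. Without EFNA3 replicate 1 these counts were 8 and 10 and the median was -0.014. Kitl, the gene of the KIT ligand, averaged 12.12 ± 0.07 in EFNA3 libraries and 12.19 ± 0.07 in controls (log2, SD, n = 3). Its difference of -0.07 (SE 0.07) was -0.03 without EFNA3 replicate 1 and turned to 0.06 with the length and GC correction. Of 12 tested genes of the CD14 and TLR4 pathway 6 were higher and 6 lower, and 3 and 9 without EFNA3 replicate 1. The lipopolysaccharide receptor gene Tlr4 had 10.86 ± 0.34 in EFNA3 libraries and 11.08 ± 0.11 in controls. Its difference of -0.22 (SE 0.15) was -0.03 without EFNA3 replicate 1. The co-receptor gene Ly96 had 7.84 ± 0.28 in EFNA3 libraries and 7.76 ± 0.13 in controls, a difference of 0.08 (SE 0.16), or -0.08 without that library. Tlr2, which senses bacterial lipoproteins, had 12.10 ± 0.05 in EFNA3 libraries and 11.93 ± 0.03 in controls without overlap. The difference was 0.17 (SE 0.06, adjusted p = 0.55 by limma), or 0.14 without EFNA3 replicate 1. Of the 12 genes, 1 lay apart above the controls and 1 below, where 16.0% of tested genes were apart.

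The retinoic acid list, to which the reaction of ALDH1A3 belongs, had 7 genes higher and 5 lower of 12 tested, and 9 and 3 without EFNA3 replicate 1. Rdh10, the enzyme that makes retinaldehyde from retinol and so supplies ALDH1A3, read 11.53, 11.36 and 11.27 in EFNA3 libraries, against 11.03, 11.04 and 11.17 in controls. All EFNA3 libraries lay above all controls. The difference was 0.31 (SE 0.08, adjusted p = 0.55 by limma), 0.24 without EFNA3 replicate 1 and 0.33 with the length and GC correction. Rdh10 and the low gene Aldh1a7, at -0.84 (SE 0.35), or -0.67 without EFNA3 replicate 1, stood at an unadjusted p under 0.05 and their groups were apart, as in 16.0% of tested genes. Aldh1a1 was under the filter, at 2.29 ± 0.25 in EFNA3 libraries and 2.49 ± 0.62 in controls, and Aldh1a2 was not analysed here.

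Among relatives of the factors, 7 of 18 other ETS genes were higher and 11 lower, and 10 and 8 without EFNA3 replicate 1. Etv4, an ETS factor of FGF and EGF signalling, read 7.97, 7.83 and 7.92 in EFNA3 libraries, against 7.48, 7.56 and 7.56 in controls. The groups were apart, with a difference of 0.37 (SE 0.11, adjusted p = 0.55 by limma), or 0.34 without EFNA3 replicate 1. Etv1 and Etv5 of the same list went the other way, with overlap, at -0.31 (SE 0.18) and -0.22 (SE 0.13). Without that library they stood at -0.26 and -0.14. In all, 3 of the 18 other ETS genes were apart, against 16.0% of tested genes. Of 10 other SOX genes tested, 3 were higher and 7 lower, and 4 and 6 without EFNA3 replicate 1. Sox6 read 5.71, 5.61 and 5.96 in EFNA3 libraries, against 6.34, 6.51 and 6.46 in controls. Its groups were also apart, with a difference of -0.68 (SE 0.17, adjusted p = 0.55 by limma) and -0.66 without EFNA3 replicate 1. Sox6 was the 1 of these 10 SOX genes apart, beside the same 16.0%. Ldb1, whose protein binds LMO4, had 13.18 ± 0.11 in EFNA3 libraries and 13.12 ± 0.06 in controls. Of 8 tested genes of the LMO and LIM domain list 5 were higher and 3 lower, and 6 and 2 without EFNA3 replicate 1.

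Itgav, the alpha chain that pairs with ITGB3, averaged 12.42 ± 0.11 in EFNA3 libraries and 12.42 ± 0.02 in controls. Of 15 tested partners and ligands of ITGB3, 7 were higher and 8 lower, and 6 and 9 without EFNA3 replicate 1. In the list of the prolactin receptor and STAT5 axis, 2 of 9 tested genes were higher and 7 lower, with a median of -0.089, or -0.079 without EFNA3 replicate 1. The receptor gene Prlr averaged 12.22 ± 0.27 in EFNA3 libraries and 12.53 ± 0.08 in controls. The groups did not overlap. The difference of -0.31 (SE 0.12) was -0.16 without EFNA3 replicate 1 and -0.10 with the length and GC correction. The Prlr transcript is long (9900 nt), and the part of length in its difference was not tested. Stat5a, the factor that carries the prolactin signal, was apart by a small margin, at 10.87 ± 0.01 in EFNA3 libraries and 10.96 ± 0.02 in controls, a difference of -0.09 (SE 0.06, adjusted p = 0.57 by limma), or -0.08 without EFNA3 replicate 1. Prlr and the low gene Igf2, at -1.29 (SE 0.47), or -1.41 without that library, were the 2 of 9 genes at an unadjusted p under 0.05, as were 6.73% of tested genes. With Stat5a they were also the 3 whose groups were apart, as in 16.0% of tested genes. Of 4 tested milk genes, which ELF5 acts on, 2 were higher and 2 lower, and 3 and 1 without EFNA3 replicate 1.

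Further markers of luminal and alveolar progenitors, a list apart from the 10 genes, had 16 genes higher and 4 lower of 20 tested, with a median of 0.090, and 14 and 6 with a median of 0.047 without EFNA3 replicate 1. Of these, Lurap1l differed by 0.30 (SE 0.09) with no overlap, or 0.20 without that library, and Krt15, a keratin gene of progenitors, by 0.21 (SE 0.09), or 0.16 without it. Both were at adjusted p = 0.55 by limma with all libraries. Lurap1l was the 1 of these 20 genes whose groups were apart, against 16.0% of tested genes. General luminal genes had 10 higher and 4 lower of 14, with a median of 0.084, and 11 and 3 with a median of 0.06 without EFNA3 replicate 1. Among them Krt7 differed by 0.22 (SE 0.09), or 0.13 without that library, and Krt19 by 0.21 (SE 0.09), or 0.13. The groups lay apart in 4 of the 14, all higher with EFNA3, against 16.0% of tested genes. Hormone-sensing markers had 7 higher and 6 lower of 13 with all libraries, and 4 and 9 without that library. Basal and myoepithelial markers had 6 higher and 8 lower of 14, and 5 and 9 without that library. Their level was high. Summed on the linear scale and given as log2, 17 basal genes stood at 17.45 in each EFNA3 library and 17.41 to 17.45 in controls. The 14 general luminal genes stood at 17.10 to 17.26 and at 17.05 to 17.11. These sums are not corrected for length, and the part of basal cells in the cultures was not tested. No difference between these lists was tested.

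**Figure D5:**
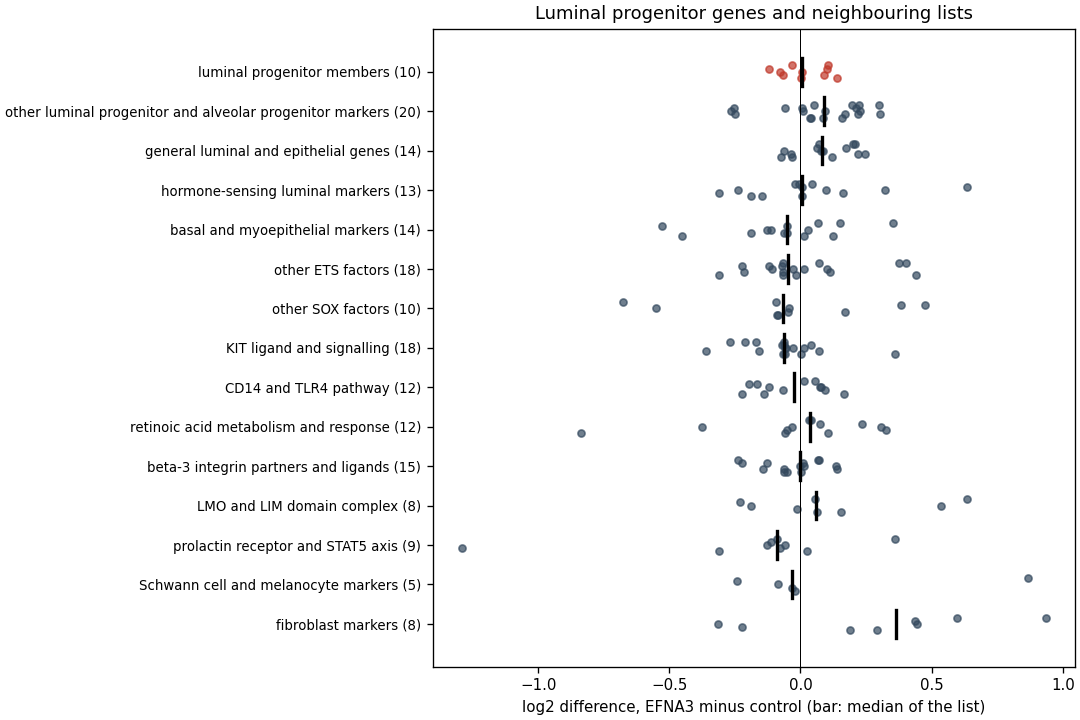
Log2 difference, EFNA3 minus control, of every tested gene in the lists with at least 5 tested genes (number in brackets), with a bar at each list's median. The 10 luminal progenitor genes (red) lie between -0.12 and 0.14, and their median is 0.0048.

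Kit, Cd14, Sox10 and Itgb3 are also expressed outside the epithelium, so markers of those cells were read beside them. Summed on the linear scale and given as log2, 4 macrophage and leukocyte genes ranged from 7.43 to 7.89 in EFNA3 libraries and from 7.35 to 7.74 in controls. Of the 10 listed, 3 passed the filter, Lyz2 did not, and 6, with Ptprc among them, were not among the genes of the deposited table. The 8 mast cell markers were not among the genes of that table either, and why such genes are missing was not tested. Of 10 Schwann cell and melanocyte markers 5 passed the filter, with a sum of 10.86 to 11.20 in EFNA3 libraries and 11.05 to 11.13 in controls. Of 10 endothelial and platelet markers 3 passed, with a sum of 8.99 to 9.28 in EFNA3 libraries and 9.18 to 9.22 in controls. Of 8 tested fibroblast genes 6 were higher and 2 lower, and their sum was 10.86 to 10.99 in EFNA3 libraries and 10.97 to 11.03 in controls. The groups lay apart only in the 2 lower genes, against 16.0% of tested genes. Of these, Fbln1 differed by -0.31 (SE 0.10, adjusted p = 0.55 by limma), or -0.32 without EFNA3 replicate 1. The part of such cells in the differences of the members was not tested.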

How the data were processed

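RNA was measured in 3 EFNA3 and 3 control libraries. Trim Galore, Subread and featureCounts, with build mm39, were named by the authors per the submitters' processing notes; no version, annotation or strand setting is stated there. The deposited values are log2 values by gene symbol, taken as such because they are not whole and run from -0.794 to 18.11; the base is inferred. The authors had given all libraries 1 distribution (sorted columns lie within 0.00302 of each other), which hides any global shift.

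Columns were matched to samples by the description labels. The filter asked for a log2 value of 3.32 or more (10 as a linear value) in 3 or more libraries. The test was limma 3.58.1 in R 4.3.3, two-sided, with a mean-variance trend, no pseudocount, no block, and Benjamini-Hochberg adjustment at 0.05 over all tested genes. It was tested on simulated data. An exact permutation test of 3 against 3 cannot go below 0.1. Lengths and GC shares are those of the longest GENCODE M21 transcript by symbol, for an earlier build, matched for 97.4% of tested genes; the correction takes splines with 5 degrees of freedom in both out of each library. Alternatives covered the filter, pseudocount, scaling, variance model, library weights, blocks, length and GC, and leaving out each library.

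The members and lists were chosen with earlier results of these data known. Named genes are the 10 members, 10 fixed partners, up to 3 listed genes per list by smallest unadjusted p, and the 3 genes most like Elf5 and Kit. Some genes this rule names are not reported here. A comparison of member proteins planned at the start was not run.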

Additional observations from a re-analysis of the deposited data

How the results depend on the processing

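With 2 groups of 3 libraries and unknown depth, the intervals of the members allow changes of up to 1.33-fold for Elf3 and less for the others. Of 190 values of the 10 members under 19 alternatives each, 174 kept their sign and stayed short of an adjusted p of 0.05, and 16 changed sign. The count of all genes called was 0 except with the description numbers as a replicate block, where it was 71, none of them a member; there EFNA3 replicate 2 and control replicate 2 each stood alone. Correlations of the deviations from the group means between same-numbered libraries were -0.11, 0.03 and -0.32 for numbers 1, 2 and 3 of the titles. As the labels tie the numbers to no shared source, they were not taken to pair the libraries. The block by title numbers left the median of the members at 0.0048 and the count of calls at 0.

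The median over the members was 0.0295 with the block by description numbers and 0.0362 with the length and GC correction, with or without the block by title numbers. Members without overlap numbered 3 with the length and GC correction, with or without that block (Ehf and Sox10 lower, Aldh1a3 higher; 15.2% of tested genes), and 4 with the correction and without EFNA3 replicate 1 (20.0%). When each library was left out in turn they ranged from 0 to 3: 3 without control replicate 2 (22.9% of tested genes) and without EFNA3 replicate 3 (33.9%), 2 without EFNA3 replicate 1 and 1 without control replicate 3 (33.4%). The count of members higher with EFNA3 was between 4, without control replicate 1, and 8, with the length and GC correction.

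Signs changed as follows. Elf5 was -0.001 when centred on the middle 40% of genes, -0.049 with library weights, -0.044 with the length and GC correction without EFNA3 replicate 1, and -0.051 to 0.042 with each library left out. Kit was 0.029 with the length and GC correction, with or without the block, and 0.012 with it and without EFNA3 replicate 1; for Itgb3 these were 0.054 and 0.007, and for Kitl 0.060 and 0.010. Cd14 was -0.018 with the correction and without EFNA3 replicate 1. With each library left out Sox10 ran from -0.069 to 0.037, Sox9 from -0.020 to 0.031 and Itgav from -0.040 to 0.067; Itgav was -0.027 with the block by description numbers. Ldb1 was -0.004 with library weights, -0.014 with the correction without EFNA3 replicate 1 and -0.010 to 0.10 with each library left out. Ly96 was -0.015 with library weights, -0.059 with the correction, with or without the block, -0.150 with it and without EFNA3 replicate 1, and -0.076 to 0.196 with each library left out. The cause of these changes was not tested.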
